A study of Malus hupehensis with 3 samples.

Results

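The microRNAs described here are the families mdm-miR159 and mdm-miR319 of *Malus hupehensis*, an apple rootstock species, with the gene models that the degradome paired with them. Members were all names that begin with mdm-miR159 or mdm-miR319, which gave 6 of 207 known miRNA names and 4 of 85 distinct known mature sequences, and every gene model listed with them, which gave 6 of the 271 gene models in the degradome list. Of those 271 gene models, 129 were listed with a known miRNA.

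The A library was made from adult phase leaves at the tops of 18 6-year-old trees, and the J library from juvenile phase leaves at the base of the trees, which the study's methods describe as the same 18. No treatment of the trees was stated, the leaves of each phase were pooled, and phase therefore went with the place on the tree. One degradome library, in which the 5′ ends of cleaved mRNAs are sequenced, was made from J leaves only. With 1 library for each, no spread between samples and no test of phase could be given, and fewer cells of a type and less RNA per cell cannot be told apart in pooled leaves.

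Known miRNA reads, each distinct sequence counted once, came to 784081 in A and 1538846 in J. Counts were scaled to reads per 1000000 total clean reads (RPM). Intervals are exact 95% limits, Poisson for RPM and Clopper-Pearson for ratios and shares. They cover counting error only, since amplified reads are not independent molecules. A count of 0 allows up to 3 reads, or 0.185 RPM in A and 0.221 RPM in J. Ratios are A over J. On this scale the median ratio over 56 sequences of known miRNAs that had at least 10 reads in A and in J was 0.62 (log2 -0.69), so an A over J ratio below 1 was the common state of these libraries.

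miR159 and miR319 are old plant families whose mature sequences resemble each other and which are thought to share an ancestor. In Arabidopsis, miR159 guides the cleavage of mRNAs for GAMYB-like MYB transcription factors, such as MYB33 and MYB65, which act in gibberellin and abscisic acid responses, anther development and vegetative growth. In the same species miR319 guides the cleavage of mRNAs for TCP transcription factors, which restrain cell division in growing leaves and so shape the leaf margin. A plant miRNA pairs with its target along nearly its full length, and Argonaute cuts the mRNA between the bases opposite miRNA bases 10 and 11, so that the 3′ fragment begins opposite base 10.

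The 6 names stood for 4 mature sequences, which are printed because the comparison of the families turns on their likeness. They are given 5′ to 3′ with the seed, bases 2 to 8, in capitals.

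mdm-miR159a, mdm-miR159b: cUUGGAUUgaagggagcucc
mdm-miR319a, mdm-miR319b: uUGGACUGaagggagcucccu
mdm-miR159c: gAAUUCCUucuccucuccuuu
mdm-miR319c: aUCCAACGaagcaggagcuga

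No pair of the 4 sequences shared a seed, and 0 of the 373 other known and predicted names held any of the 4 seeds. The sequences of mdm-miR159a/b, 20 nt long, and mdm-miR319a/b, 21 nt long, are nevertheless close once they are shifted by 1 base. Bases 2 to 20 of mdm-miR159a/b and bases 1 to 19 of mdm-miR319a/b matched at 18 of 19 positions. The 1 mismatch is U7C, counted from 1 at the 5′ end of mdm-miR159a/b, and it lies at base 6 of mdm-miR319a/b. The shift and this mismatch together give the 2 sequences different seeds. Behind it the sequences share 13 bases in a row, bases 8 to 20 of mdm-miR159a/b and bases 7 to 19 of mdm-miR319a/b:

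shared run: ugaagggagcucc

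None of the 373 other names held that run. The longest piece of the mdm-miR159a/b or mdm-miR319a/b sequence found in any other name was 10 bases, in novel_mir_495, a predicted miRNA singled out after the search was seen. The sequences of mdm-miR159c and mdm-miR319c, both 21 nt, fell outside this resemblance. mdm-miR159c shared at most 4 bases in a row with any other member, and mdm-miR319c at most 6. Each family name thus covered 1 sequence of the shared kind and 1 that was not alike.

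Reads of both families were few in A and in J. The mdm-miR159a/b sequence had 44 reads in A and 69 reads in J. These were 2.71 RPM (1.97 to 3.64) in A and 5.09 RPM (3.96 to 6.45) in J. Its A over J ratio was 0.533 (0.356 to 0.789; log2 -0.91), above the 0.5 below which a call is made, and it turned to 1.25 when the libraries were scaled by known miRNA totals. mdm-miR159c had 0 reads in A and 1 read in J, so no ratio was formed, and mdm-miR159a/b carried nearly all reads of the family.

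mdm-miR319 was listed at 0 in A for both of its sequences. mdm-miR319a/b had 0 reads in A and 8 reads in J, which was 0.591 RPM in J (0.255 to 1.16). Set against 3 reads in A, which a count of 0 allows, its level was at least 3.19-fold lower in A, a bound of 0.313 on the ratio that takes the J count as it stands. The exact 95% upper limit of the ratio was 0.489, and the bound rose to 0.736 under known miRNA totals and 0.505 with the median ratio set to 1. Bounds under other scalings, here and below, leave out the counting error of the J count. Exact limits are not given for them, so they do not show that a ratio stays below 1. The sequence stayed under the minimum of 10 reads in a library. mdm-miR319c had 0 reads in A and 12 reads in J, which was 0.886 RPM in J (0.458 to 1.55). By the same floor of 3 reads, and with the J count taken as it stands, its level was at least 4.79-fold lower in A. That is a bound of 0.209 on the ratio, with an exact 95% upper limit of 0.301, and it rose to 0.491 under known miRNA totals, 0.337 at the median ratio and 0.331 under TMM. Among the 9 known distinct sequences with 0 reads in A and reads in J, this J count was the largest.

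**Figure D1:**
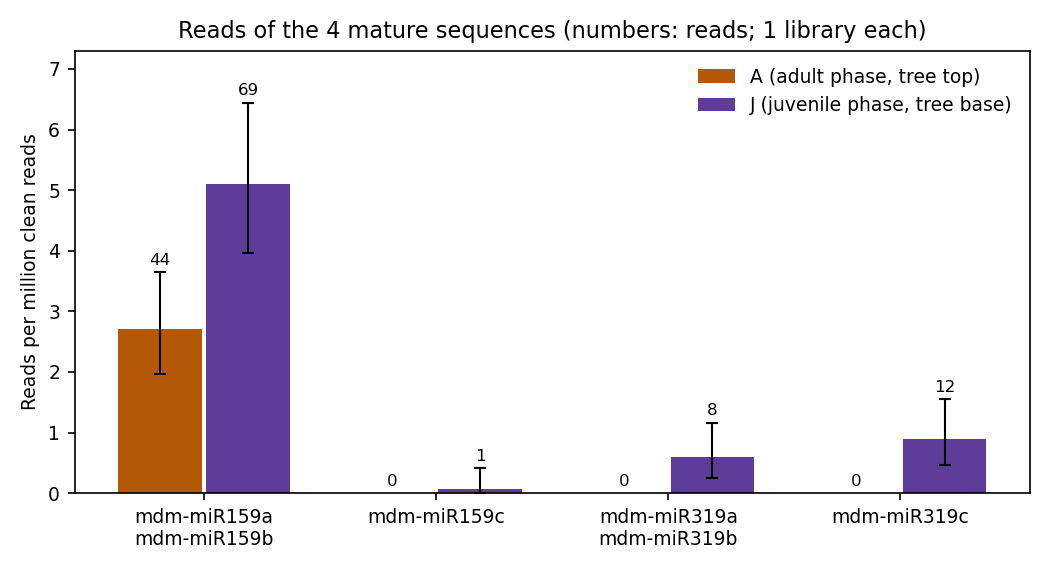
RPM, reads scaled to total clean reads (vertical axis), of the 4 mature sequences in the A library, left bar, and in the J library, right bar, with the number of reads above each bar. Error bars are exact 95% intervals for counting error, with no bar drawn for a count of 0, which allows 0.185 RPM in A; mdm-miR159a/b stands at 2.71 RPM in A and 5.09 RPM in J, and the 3 other sequences have 0 reads in A and 1, 8 and 12 reads in J.

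Calls were made, for sequences and for families alike, on a change of 2-fold or more in either direction with 1 outside the interval and a minimum of 10 reads in A or in J. Over the 59 known distinct sequences with 10 or more reads in a library, 45.8% were called in either direction, 37.3% lower in A and 8.47% higher in A. Of the 4 member sequences, 2 reached 10 reads and 1, mdm-miR319c, was called lower in A. It reached 10 reads only through J, where it was high, so its call adds nothing to its counts. The 22 calls lower in A and 5 higher in A became 10 and 22 under known miRNA totals, and 13 and 13 under the median ratio or TMM, so the split of directions in these libraries depended on the scale.

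Summed over its sequences, the mdm-miR159 family had a level of 2.71 RPM in A, from 44 reads, and of 5.17 RPM in J, from 70 reads. The ratio of 0.525 (0.352 to 0.776; log2 -0.93) was not called, and it turned to 1.23 under known miRNA totals and moved to 0.847 when the median ratio was set to 1. The mdm-miR319 family had 0 reads in A and 20 reads in J, or 1.48 RPM in J (0.902 to 2.28). By the floor of 3 reads, and with the J count taken as it stands, it was at least 7.98-fold lower in A. It was called, again only through its reads in J. The bound on its ratio was 0.125, the exact 95% upper limit was 0.169, and the bound was at most 0.294 under the 5 other scalings. That is at least 3.40-fold lower in A if the J count is taken as it stands, without its counting error. Of the 38 known families with 10 or more reads in a library, 39.5% were called lower in A, so 1 call lower in A among the 2 families was near the background.

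By reads, mdm-miR159 held rank 28 in A and rank 27 in J among 43 known families. mdm-miR319 held rank 33 in J. The 3 families whose ratio lay nearest to that of mdm-miR159, as distance in log2 over the families with 10 or more reads in J, were mdm-miR403, mdm-miR167 and mdm-miR858. mdm-miR403, with 162 reads in A and 254 in J, was at 0.533. mdm-miR167, with 118832 reads in A and 180793 in J, was at 0.549 and mdm-miR858, with 238 reads in A and 404 in J, was at 0.492. Their levels thus spanned a wide range at nearly 1 ratio. Beside mdm-miR319, 1 other family had 0 reads in A and 5 or more in J, mdm-miR477 with 7 reads in J. mdm-miR319 was the 1 family of 43 with 0 reads in A and 10 or more in J, but its counts lay close to those of families with a few reads in A. Those of mdm-miR169 were 2 in A against 20 in J and those of mdm-miR394 were 2 in A against 13 in J, both within the 3 reads that a count of 0 allows in A and both singled out after their values were seen.

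**Figure D2:**
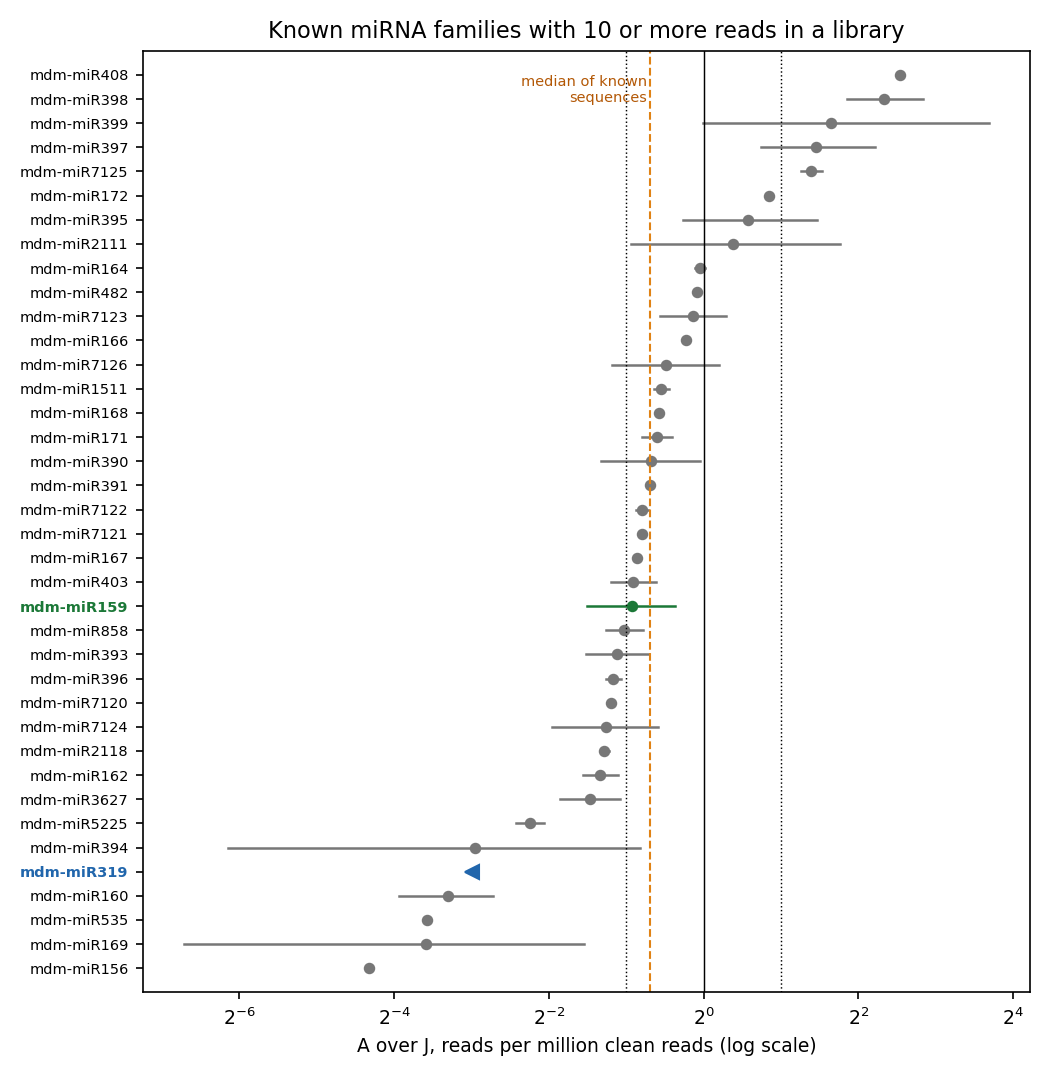
A over J ratio of RPM (horizontal log axis) of the 38 known families with 10 or more reads in a library, with 95% counting intervals as bars. The dotted lines mark ratios of 0.5 and 2, the dashed line the median of known sequences at 0.62 and the triangle an upper bound; mdm-miR159 lies at 0.525, between that median and the 0.5 line (1.23 under known miRNA totals), and mdm-miR319 at its bound of 0.125.

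The share of mdm-miR319 among reads of both families does not depend on the scale of the libraries. It was 0 of 44 reads in A, which allows a share of up to 6.82% by the floor of 3 reads and 8.04% by the exact 95% limit, and 20 of 90 reads in J, 22.2% (14.1 to 32.2). With only the 2 sequences of the shared kind, it was 0 of 44 in A, with the same limits, and 8 of 77 in J, 10.4% (4.59 to 19.4). The J interval of this restricted share reached below both limits. Overlap of intervals does not decide whether the share of mdm-miR319a/b differed, which was not tested. As parts of all known miRNA reads, mdm-miR159 was 0.00561% in A and 0.00455% in J. mdm-miR319 was 0 in A, where 3 reads would be 0.000383%, and 0.0013% in J.

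The study's stated matching of reads to known miRNAs allowed a single mismatch. The 2 sequences of the shared kind differ by 1 mismatch over their overlap, so a shortened read could be placed with either, and how the reads were split between them was not tested. The 12 reads of mdm-miR319c in J came from a sequence that this resemblance did not include.

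The degradome list holds, for each record, a gene model of the apple genome, a cleavage site, how often it was seen, a score for the pairing and 31 bases of sequence around it. The score is a penalty in which a mismatch costs 1 and a wobble pair (G with U) costs 0.5, as recomputation gave in 2204 of 2204 records, and the highest score listed was 4. Sites are numbered from the start of the coding sequence of the gene model. The count was taken as reads that begin at the site. Only mdm-miR159a/b and mdm-miR319a/b had records, 14 in all, and mdm-miR159c and mdm-miR319c had none. These were 6 combinations of gene model and site for mdm-miR159 and 1 for mdm-miR319, of 159 combinations for known families. No other known or predicted miRNA was listed at the 6 gene models.

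The site with the larger count lay in MDP0000147309, which the study annotates as myb domain protein 65, a GAMYB-like factor in Arabidopsis. It was base 964 of a coding length of 1656, 58.2% along it, and its count was 321, rank 34 of the 159 combinations, whose counts ran from 25 to 1661 with a median of 76. The gene ontology terms shown for it are on hormone-mediated signaling, the response to abscisic acid, pollen development and growth. Its window is printed because it is the 1 site where both families were listed. The first line has the base of the site in capitals, and the second the bases that form Watson-Crick pairs with mdm-miR159a/b, which are the same bases as for mdm-miR319a/b.

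MDP0000147309, site: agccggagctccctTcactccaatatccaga
MDP0000147309, paired: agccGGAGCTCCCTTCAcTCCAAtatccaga

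At this site mdm-miR159a/b scored 2 and mdm-miR319a/b scored 3, so over full lengths the pairing of mdm-miR159 was closer by 1 mismatch. Each formed 18 pairs in the same places of the mRNA. mdm-miR159a/b was mismatched at its bases 1 and 7, and mdm-miR319a/b at its bases 6, 20 and 21. The 13 shared bases paired without a break in both, as bases 8 to 20 of mdm-miR159a/b and bases 7 to 19 of mdm-miR319a/b. The mismatch inside the site was the same base of the mRNA for both, opposite position 7 of mdm-miR159a/b and position 6 of mdm-miR319a/b. The difference in score came from the ends, where mdm-miR159a/b has 1 unpaired base at its 5′ end and mdm-miR319a/b has 2 at its 3′ end. With penalties doubled at bases 2 to 13 of the miRNA the scores became 3 for mdm-miR159a/b and 4 for mdm-miR319a/b, and the gap stayed at 1. Over only the first 20 bases of mdm-miR319a/b, the length of mdm-miR159a/b, both penalties were 2, so the gap depended on length.

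The 1-base shift between the miRNAs also moved the site along them. The site of MDP0000147309 lay opposite base 10 of mdm-miR159a/b, an offset of 0, and opposite base 9 of mdm-miR319a/b, an offset of 1 base toward the 3′ end of the mRNA. Among the 159 combinations of known families, 129 had the site opposite base 10, which is 81.1%, 13 had an offset of -1 and 6 an offset of 1. The other families alone had 128 of 152 opposite base 10, 84.2% (77.4 to 89.6). Of the 7 combinations described here, 1 lay opposite base 10 and all 7 within 1 base of it, as did 148 of the 159. These 7 come from only 2 distinct windows, so they are not separate observations to set against that share. With equal windows and counts taken as 1, the share of known combinations opposite base 10 was 76.5%. A site listed for more than 1 known family was found 2 times in the whole list, and the other was MDP0000258197, with mdm-miR3627 at an offset of 1 and mdm-miR5225 at an offset of -3.

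The other site was listed in 5 gene models for mdm-miR159a/b only, with a score of 4 and a count of 28 in each. The 5 windows were the same in all 31 bases and the counts were equal, so reads of these gene models cannot be told apart, and the site may stand for 1 mRNA or for several. It was base 1196 of 1461 in MDP0000763497, MDP0000920127 and MDP0000927314, and base 1190 of 1455 in MDP0000287069. In these 4 gene models it lay 265 bases before the end of the coding sequence, 81.8% to 81.9% along it. In MDP0000237553 it was base 308 of 564, 54.6% along a much shorter model. The gene ontology terms shown for the 4 longer gene models are on leaf development, leaf morphogenesis, shoot development and organ morphogenesis, and no term was shown for MDP0000237553. The files give the 5 gene models no gene name. A count of 28 was low in this list, where 144 of the 159 combinations had a higher count, and its score of 4 was the highest allowed, as for 24 combinations in all.

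The window of the 5 gene models is printed 3 times, because the pairing listed for mdm-miR159a/b and the one that was not listed for mdm-miR319a/b differ in it. Capitals mark the site in the first line, and the Watson-Crick pairs with mdm-miR159a/b and with mdm-miR319a/b in the next lines.

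5 gene models, site: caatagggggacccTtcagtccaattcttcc
5 gene models, paired with mdm-miR159a/b: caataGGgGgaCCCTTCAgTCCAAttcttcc
5 gene models, paired with mdm-miR319a/b: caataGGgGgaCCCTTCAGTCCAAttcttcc

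mdm-miR159a/b formed 15 pairs here, with mismatches at its bases 1, 15 and 16 and wobble pairs at its bases 7 and 18, and its longest paired run was 7 bases, 8 to 14. The listed site lay opposite its base 11, an offset of -1 base, toward the 5′ end of the mRNA. mdm-miR319a/b was not listed at this site. Scored in the same way, it formed 16 pairs with a first run of 13, bases 1 to 13, a wobble pair at base 17 and mismatches at bases 14, 15, 20 and 21. Its penalty was 4.5, above the highest score of 4 in the list, and the site lay exactly opposite its base 10. Over only its first 20 bases, the length of mdm-miR159a/b, the penalty of mdm-miR319a/b was 3.5, and with doubled penalties at bases 2 to 13 both miRNAs stood at 4.5. The base that gives mdm-miR159a/b a wobble pair at position 7 gives mdm-miR319a/b a Watson-Crick pair at position 6, which is where U7C lies. Over full lengths with every base weighted alike, mdm-miR159a/b thus had the lower penalty at both sites. It was 2 against 3 at MDP0000147309 and 4 against 4.5 in the 5 gene models. Over the first 20 bases it was 2 against 2 and 4 against 3.5, so this order depended on length. The site lay opposite base 10 of mdm-miR159a/b at MDP0000147309 and opposite base 10 of mdm-miR319a/b in the 5 gene models. Both rest on 1 library and 1 distinct window each.

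**Figure D3:**
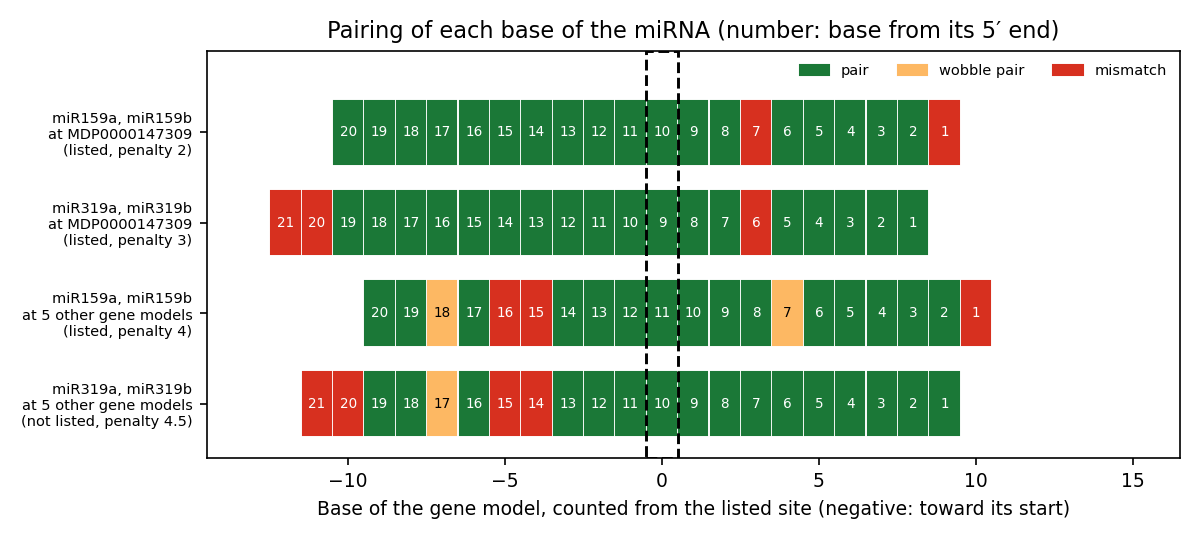
Pairing of each base of mdm-miR159a/b and mdm-miR319a/b (numbered boxes, from the 5′ end) at the site of MDP0000147309, upper pair of rows, and at the site of the 5 other gene models, lower pair of rows; the horizontal axis is the distance in bases from the listed site. Green is a Watson-Crick pair, orange a wobble pair and red a mismatch, and the dashed frame at 0 holds base 10 of mdm-miR159a/b and base 9 of mdm-miR319a/b in the upper rows and bases 11 and 10 in the lower rows.

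The 2 windows are not copies of each other. In their best overlap without gaps they matched at 17 of 30 bases, and the longest run in common was the 7 bases cccttca, which pair with the run shared by the 2 miRNAs. All 436 distinct windows of the list were then scored against the 4 member sequences. At a penalty of 4 or less, mdm-miR159a/b had 2 windows and mdm-miR319a/b had 1, which are the listed ones. At 5 or less both had the same number, 2. The next window stood at a penalty of 7 for mdm-miR159a/b and 7.5 for mdm-miR319a/b. The list holds only sites that scored 4 or less for some miRNA. Sites that pair with the members at a penalty above 4 are missing unless another miRNA was listed there. The search therefore cannot show that no such site exists. Among the listed windows the lowest penalty of mdm-miR159c was 6.5 and that of mdm-miR319c was 6, which says nothing of sites outside the list.

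**Figure D4:**
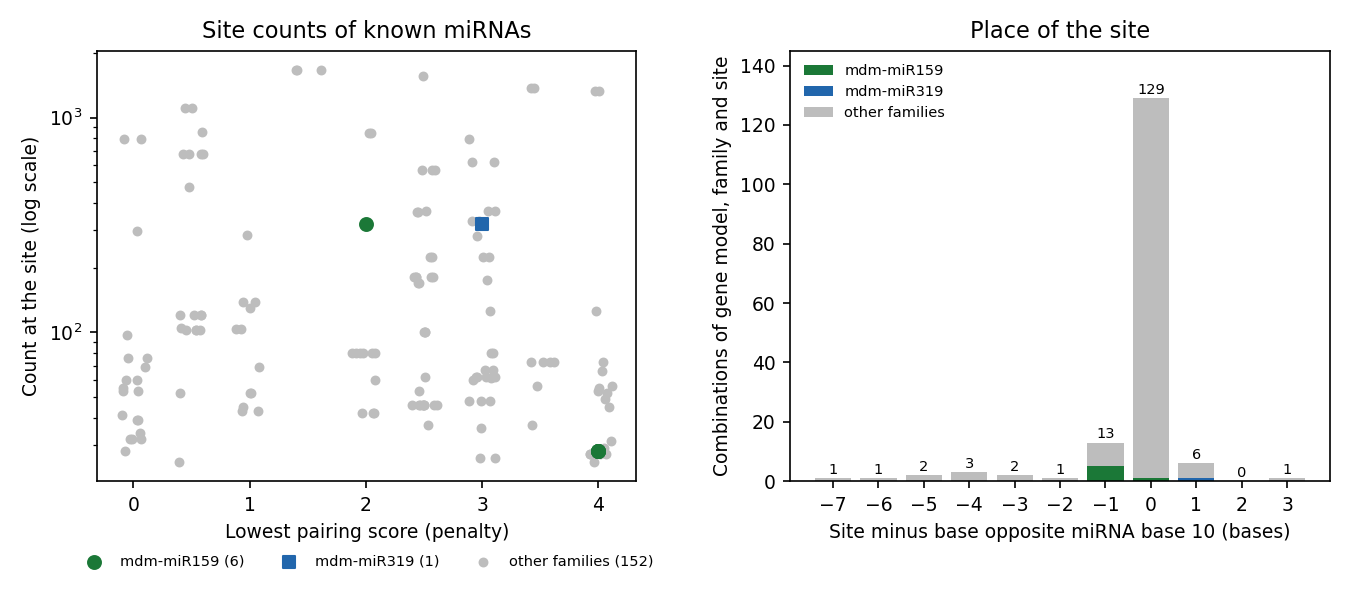
Left, the count at each site of known miRNA families (log axis) by the lowest pairing score of the combination, with points of other families spread sideways to be seen: mdm-miR159 stands at a score of 2 and a count of 321 and, as 5 points on top of each other, at 4 and 28, and mdm-miR319 at 3 and 321. Right, the number of the 159 combinations at each distance of the site from the base opposite miRNA base 10, with 129 at 0, where 1 is of mdm-miR159, 13 at -1, where 5 are of mdm-miR159, and 6 at 1, where 1 is of mdm-miR319.

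Other gene models named as myb in the study's target annotation were taken as the list to set beside MDP0000147309. MYB genes annotated under other names would be missed, so the counts below hold for this list only. Of 19 gene models annotated there as myb domain proteins, 13 had a record in the degradome list. They were listed for mdm-miR828, mdm-miR858 or 3 predicted miRNAs, and 0 of them for mdm-miR159 or mdm-miR319. Their largest counts ran from 130 to 368 with a median of 180, and 2 were above the 321 of MDP0000147309. These 2, MDP0000031172 and MDP0000210851, both had 368, and several gene models had the same count of 180. Equal counts were not merged here, so they may not be separate sites. Their sites lay between 4.93% and 57.1% of the coding length, against 58.2% in MDP0000147309. Scored against the member sequences, the closest of their windows had a penalty of 7 with mdm-miR159a/b and 8.5 with mdm-miR319a/b. Each window holds only the 31 bases around a site listed for another miRNA. The rest of these gene models was not scored, so these penalties do not show whether a member could pair elsewhere in them. No gene model in the target annotation was named as a TCP factor. The 5 gene models of the other site have no gene name, so this search by name could not cover them. The degradome was made from J leaves alone, so none of these sites can be compared between A and J.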

How the data were processed

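Small RNAs of *M. hupehensis* leaves were sequenced from 1 A and 1 J pool, and cleaved mRNA ends from 1 J pool. The authors removed adapters and low-quality reads, matched reads to apple miRNAs of miRBase 18.0, and deposited raw read counts per entry (380 entries, of which 172 are predicted miRNAs) without normalization. The deposited counts summed to 4272351 in A and 6275651 in J. Names came from the study's list of mature sequences. Names with 1 mature sequence were counted once, at the largest count, and family values add up their different sequences. The scale was the total clean reads the study states. For the degradome, the authors paired cleavage sites with miRNAs in PairFinder and deposited, as other values, the site, its count and a pairing score. The unit of that count is not given in the sources used here. The site was placed at base 15 of the 31-base window, since the 3 windows of sites at base 15 of a gene model all begin with ATG. Lengths of all 271 gene models are multiples of 3, so they are coding lengths, and no genome coordinates were used. Gene ontology terms were read from an incomplete copy, so only terms shown are given.

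Python 3.11.15, numpy 2.4.6 and SciPy 1.17.1 were used for intervals, edgeR 4.0.16 under R 4.3.3 for TMM factors, and matplotlib 3.10.9 for figures. Interval and call code was tested on simulated data. Calls were tested there only at expected counts well above those of mdm-miR319. No test between A and J was possible with 1 library each. The alternatives were 5 other scalings, other read minimums and ratios, other sums over names, and stricter counts, scores or offsets of sites. Named items were all members, the 3 families nearest in ratio to mdm-miR159, families at 0 in A with 5 or more reads in J, and the annotated MYB gene models as counts. Members and lists were chosen with earlier results of these data known.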

Additional observations from a re-analysis of the deposited data

How the results depend on the processing

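No paired analysis was possible because the groups share fewer than 2 replicate numbers and no result comes from a test. Of 58 alternative values, 29 stayed within counting error or 1.5 times the count, 29 moved and 0 reversed a call. This tally says little about direction. mdm-miR159 was not called, so its turn above 1 counts as moved, and the number of called sequences was compared without regard to direction. The ratio of mdm-miR159, 0.525, was 1.23 under known miRNA totals, 0.847 after centring the median ratio at 1 and 0.831 under TMM. Known miRNA totals differ between the libraries by more than clean reads do, and mdm-miR156 and mdm-miR535 hold much of the J total; without them the ratio was 0.649. The upper bound of mdm-miR319, 0.125, was 0.294 under known miRNA totals, 0.202 at the median ratio, 0.198 under TMM, 0.209 with its largest sequence alone and 0.313 with only the sequence of the shared kind. With that sequence alone, at least 3.19-fold lower in A, the family fell under the 10-read minimum and its call was lost. The bound of this sequence reached 0.736 under known miRNA totals. All these bounds leave out the counting error of the J count.

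Asking for a 4-fold change left 15 of the 27 called known sequences. Calls split 22 lower and 5 higher in A on clean reads (81.5% lower), 10 and 22 on known miRNA totals (31.2%), 15 and 8 without mdm-miR156 and mdm-miR535 (65.2%), 17 and 8 without scaling (68.0%), and 13 and 13 at the median ratio or TMM.

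Of the 6 gene models, 1 was left at a site count of 50 or more, 1 at a score of 3 or less, 1 with the site exactly opposite base 10, and 2 when equal windows and counts were taken as 1. With penalties doubled at bases 2 to 13, the scores at MDP0000147309 were 3 for mdm-miR159 and 4 for mdm-miR319, and mdm-miR159 stood at 4.5 in the other 5 gene models. Over its first 20 bases mdm-miR319 stood at 3.5 there and at 2 at MDP0000147309, where mdm-miR159 also stood at 2. These values, the other penalties of these 5 models and the shares of J reads are alternatives chosen after seeing the data. The share of known combinations opposite base 10, 81.1%, was 54.9% over single records and 93.1% within 1 base. It was 76.5% with equal windows and counts taken as 1. The J share of mdm-miR319, 22.2%, was 10.4% with the sequences of the shared kind. Counting error, at 8 to 69 reads in J for the 3 sequences with more than 1 read, and the lack of a second library limit each of these values.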
